A study of Mus musculus with 6 samples.

Results

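Genes that mark the pericytes, vascular smooth muscle cells and fibroblasts of the brain were examined in prefrontal cortex from aged mice, comparing a model of postoperative neurocognitive disorder (PND) with control (CON) animals. The genes were Pdgfrb, Rgs5, Vtn, Kcnj8 and Abcc9 for pericytes, Acta2 for smooth muscle, and Col1a1, Col1a2, Dcn and Lum for fibroblasts. The rule that chose them used their symbols and none of their values, although earlier results of these data were known when they were chosen. All 10 were found by Ensembl identifier among the 21006 genes of each sample. All 10 also had a mean of at least 0.1 FPKM (fragments per kilobase of exon, corrected for depth), the minimum for entering the comparison, as did 18185 genes in all.

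The mice were wild type C57BL/6 males, 18 months old by their age label, although all 6 sample titles carry 17M, which the labels leave unexplained. The PND group inhaled 1.5% isoflurane for 30 min and then underwent an exploratory laparotomy, an opening and inspection of the abdomen, for 30 min under isoflurane. Lidocaine cream and povidone iodine were put on the wound over the following days. The CON group had neither anesthesia nor operation, so the effects of anesthetic, surgery and wound care cannot be told apart. Both groups went through the same behavioral tests, were deeply anesthetized with isoflurane at harvest and were perfused with saline through the heart, which washes blood out of the vessels. Each group held 3 sequenced mice, out of 13 per group in the study, and each mouse gave 1 sample.

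Pericytes and smooth muscle cells are the mural cells of blood vessels. Pericytes sit in the basement membrane of capillaries, are recruited there by platelet-derived growth factor B from the endothelium acting on the receptor encoded by Pdgfrb, and help to maintain the blood-brain barrier. Smooth muscle cells wrap arterioles and arteries and set their width by contraction. Brain fibroblasts lie in the meninges and around larger vessels and lay down collagen and proteoglycans. All of these are minor cell types of the cortex. In such bulk tissue, fewer cells of a type and less RNA per cell cannot be told apart.

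The sum of all FPKM lay between 215640 and 240447 per sample, and the estimated depth between 7191893 and 9386840 fragments. The samples differed in how far GC-rich genes were measured. Genes averaging at least 1 FPKM were ranked by GC, and the tenth richest in GC (from 56.6% GC) was taken. Its log2 deviation from the mean of all 6 samples had a median of -0.56 for CON replicate 1 and -0.30 for PND replicate 2, against 0.49 for CON replicate 2 and 0.37 for PND replicate 3. Each group thus held samples at both ends, and values with this dependence removed by a smooth curve per sample (GC correction) are given where they bear on a result. Neuronal RNA was abundant in every sample, with 419 to 555 FPKM of Snap25, a protein of the synaptic release machinery. This gene does not tell the prefrontal cortex from other brain regions.

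The 10 genes were present in all 6 samples, and for none of them did the difference between the PND and the CON group pass the test. In the comparison across all genes with limma, 0 of the 10 had an unadjusted p below 0.05, against 3.13% of all genes tested, and 0 passed the study's cut-off of a more than 2-fold change with p below 0.05, against 1.33% of all genes. The test on estimated fragments (voom) also gave 0 of 10. Adjusted p-values were 0.9999 for each of the 10, and 0.0110% of all genes had an adjusted p below 0.05. Acta2 (log2 fold change 0.72), Kcnj8 (0.48) and Lum (-0.44) had the largest differences among the 10, and the 95% confidence interval of each included 0. Exact permutation tests of the single genes (two-sided, 3 against 3, which cannot give less than 0.10) gave 0.10 for Lum, 0.20 for Acta2 and Kcnj8, and at least 0.30 for the others. The estimate was higher in PND for 3 genes and lower for 7, none of them with a p below 0.05 (1.73% and 1.40% of all genes were higher and lower with such a p), with a median log2 fold change of -0.04, beside a median of 0.01 over all genes tested.

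**Figure D1:**
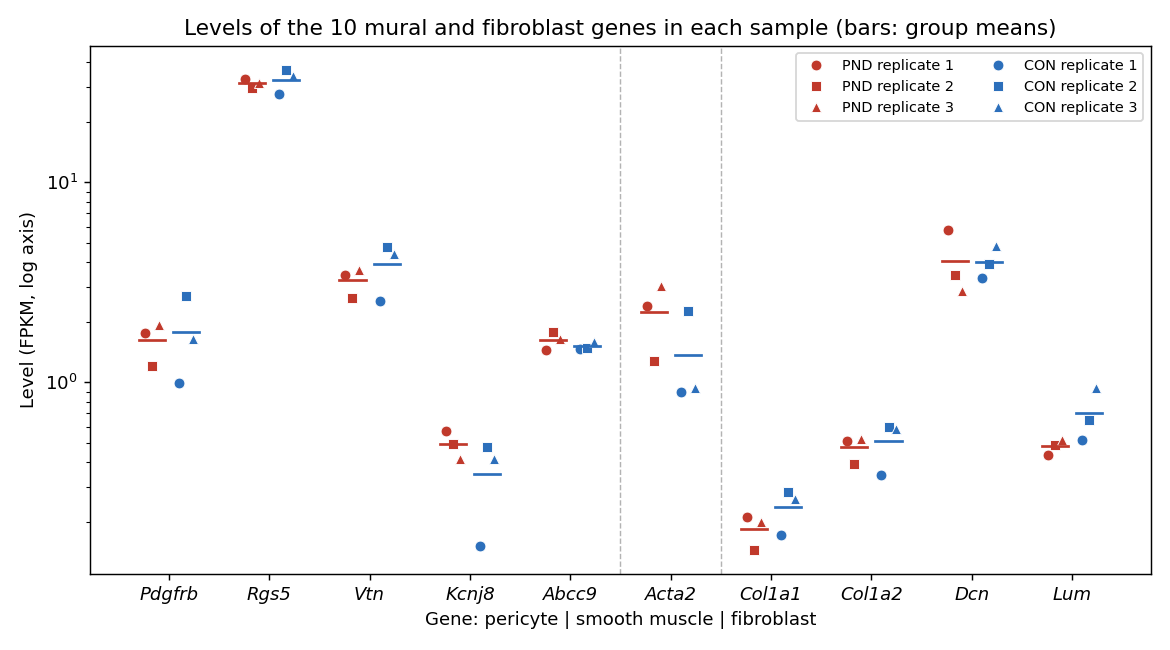
FPKM of each of the 10 genes (log axis) in the 3 PND samples (red) and the 3 CON samples (blue), with the replicate shown by the symbol and the group mean by a bar. The groups overlap for every gene except Lum, whose PND samples (0.436 to 0.513) lie just under its lowest CON sample (0.514).

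The levels, which FPKM allow to be compared per length of transcript, spanned a wide range. Rgs5 was highest, with 27.5 to 36.5 FPKM, and its level was 5.68 to 11.02 times that of Dcn, the next gene, in the same sample. Below it came Dcn, Vtn, Acta2, Pdgfrb and Abcc9, with means over the 6 samples above 1 FPKM. Within these, the ranges of neighbouring genes overlapped, although Vtn was above Acta2 in 6 of 6 samples. Abcc9 exceeded Lum in every sample, by 1.70 to 3.66 times, and their ranges did not overlap. The other 4 genes, Lum, Col1a2, Kcnj8 and Col1a1, had means below 1 FPKM, and the ranges of neighbours in this order overlapped as well.

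Among the pericyte genes, Rgs5 (ENSMUSG00000026678, GRCm38 chromosome 1, 169655501 to 169695813) encodes a regulator that ends signalling by G proteins. Rgs5 measured 33.0, 29.6 and 31.5 FPKM in PND replicates 1 to 3 and 27.5, 36.5 and 33.9 FPKM in CON replicates 1 to 3. The lowest and the highest sample were both CON, and the PND samples lay between them. The group means were 31.4 ± 1.69 (SD, n = 3) in PND and 32.6 ± 4.63 in CON, and the log2 fold change came to -0.05 (SE 0.13, unadjusted p = 0.724). Rgs5 rested on 937 to 1352 estimated fragments per sample and gave the narrowest interval of the 10, a ratio of PND to CON between 0.783 and 1.19.

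Pdgfrb (ENSMUSG00000024620, chromosome 18, 61045150 to 61085061) encodes the platelet-derived growth factor receptor beta. Pdgfrb measured 1.76, 1.20 and 1.93 FPKM in PND and 0.989, 2.71 and 1.65 FPKM in CON. The CON samples again held both ends, CON replicate 1 being lowest and CON replicate 2 highest. The log2 fold change was -0.04 (SE 0.37, unadjusted p = 0.916), with a 95% interval of the ratio from 0.531 to 1.78. These samples thus left a wide range of ratios possible, in either direction. Its direction turned with single samples, from -0.38 without CON replicate 1 to 0.30 without CON replicate 2.

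Vtn (ENSMUSG00000017344, chromosome 11, 78499091 to 78502324) encodes vitronectin, an adhesive protein of plasma and of the pericyte matrix. Vtn measured 3.44, 2.65 and 3.65 FPKM in PND and 2.56, 4.78 and 4.39 FPKM in CON. CON replicates 2 and 3 lay above all PND samples, and CON replicate 1 lay below them. The means were 3.24 ± 0.525 and 3.91 ± 1.19 FPKM, and the log2 fold change was -0.23 (SE 0.27, unadjusted p = 0.423). Without CON replicate 1 it was -0.50 with an unadjusted p of 0.0423, whereas it was -0.06 without CON replicate 2 (unadjusted p of 0.836), -0.09 without PND replicate 2 and -0.12 without CON replicate 3. After GC correction of all 6 samples it was -0.29 (SE 0.15, unadjusted p = 0.0892).

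Kcnj8 and Abcc9 encode the pore and the sulfonylurea receptor subunit of the potassium channel through which pericytes and smooth muscle cells sense their energy state. They are neighbours on chromosome 6, with Kcnj8 (ENSMUSG00000030247) at 142564837 to 142571614 and Abcc9 (ENSMUSG00000030249) at 142587862 to 142702315. Abcc9 was the steadiest of the 10, with 1.45, 1.78 and 1.66 FPKM in PND and 1.47, 1.49 and 1.60 FPKM in CON. The difference was 0.09 on the log2 scale (SE 0.20, unadjusted p = 0.646). A stretch of 158 exon bases of Abcc9 overlaps the antisense gene 5330439B14Rik, and reads from there cannot be told apart without strand. Kcnj8 measured 0.569, 0.492 and 0.414 FPKM in PND and 0.153, 0.477 and 0.414 FPKM in CON. CON replicate 1 stood far below the others, at an estimated 2.92 fragments, which is under the floor of 3 fragments, whereas no sample held more than 12.8. The log2 fold change of Kcnj8 was 0.48 (SE 0.40, unadjusted p = 0.268), and it was 0.11 without CON replicate 1. The ratio of Abcc9 to Kcnj8 was 9.60 in that sample and at least 2.55 in each sample.

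Acta2 (ENSMUSG00000035783, chromosome 19, minus strand, 34241090 to 34255590) encodes the actin of contractile smooth muscle, alpha-smooth muscle actin. Its transcription is known to be driven by serum response factor, which binds CArG boxes. A pair of such motifs was found in the 250 bases before the start of Acta2 in the RefSeq promoter table (GRCm38.p6). They are shown because Acta2 had the largest difference of the 10 genes. The motif searched was CC, 6 letters of which at most 1 was not A or T, and GG, a form that is the same on both strands, and capitals mark the match. Both windows, of 30 bases on the minus strand, lie within the first exon of the GENCODE transcript Acta2-201, which starts further upstream, in its 5′ UTR (34255290 to 34255590). The first match begins 84 bases and the second 34 bases before the RefSeq start.
Acta2 chr19:34255438-34255467: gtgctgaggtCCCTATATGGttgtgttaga
Acta2 chr19:34255388-34255417: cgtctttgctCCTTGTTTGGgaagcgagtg

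Of the 32851 promoters in that table, 8.59% held at least 1 match and 0.670% held 2 or more. Promoter entries were read for 6 of the 10 genes (Rgs5, Kcnj8, Vtn, Abcc9, Acta2 and Col1a2), of which Acta2 had 2 matches and Col1a2 had 1. Such a match is a description of the letters and not a measured binding site.

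Acta2 measured 2.41, 1.28 and 3.05 FPKM in PND and 0.899, 2.27 and 0.937 FPKM in CON. PND replicates 1 and 3 were the highest of the 6 samples, CON replicates 1 and 3 the lowest, and the remaining sample of each group lay among the other group. The means were 2.25 ± 0.897 (SD, n = 3) in PND and 1.37 ± 0.783 in CON. The log2 fold change of 0.72 (SE 0.44) had a 95% interval from -0.31 to 1.74 and an unadjusted p of 0.144, the smallest of the 10. Leaving out PND replicate 2 gave 1.06 (unadjusted p = 0.0471) and leaving out CON replicate 2 gave 1.12 (unadjusted p = 0.0220). The other 4 samples left out in turn gave no p below 0.05, and the GC-corrected value of 0.70 (unadjusted p = 0.112) was close to the uncorrected one. Acta2 rested on 14.8 to 62.9 estimated fragments per sample.

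**Figure D2:**
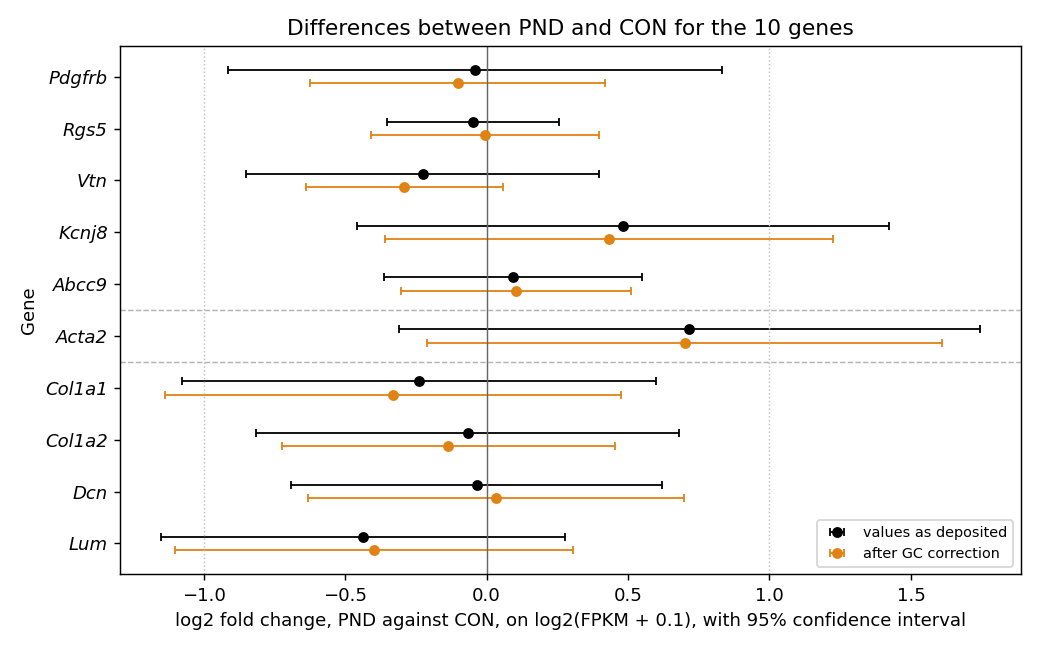
log2 fold change of PND against CON for each of the 10 genes on the log2(FPKM + 0.1) scale, with its 95% confidence interval, for the deposited values (black) and after GC correction (orange); dotted lines mark a 2-fold change. All 20 intervals include 0, and that of Rgs5 is the narrowest for the deposited values.

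The fibroblast genes encode both chains of type I collagen and a pair of proteoglycans that bind to collagen fibrils. Col1a1 (ENSMUSG00000001506, chromosome 11, 94936224 to 94953042) measured 0.212, 0.146 and 0.200 FPKM in PND and 0.173, 0.283 and 0.261 FPKM in CON. Col1a2 (ENSMUSG00000029661, chromosome 6, 4504814 to 4541544) measured 0.509, 0.390 and 0.519 FPKM in PND and 0.346, 0.598 and 0.583 FPKM in CON. For both chains CON replicates 2 and 3 were the highest samples, and CON replicate 1 and PND replicate 2 the lowest. The log2 fold change was -0.24 (SE 0.36, unadjusted p = 0.526) for Col1a1 and -0.07 (SE 0.32, unadjusted p = 0.839) for Col1a2. Col1a1 rested on only 7.57 to 15.1 estimated fragments per sample.

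A CCAAT box, the binding motif of the factor NF-Y, is a known element of type I collagen promoters. The stretch is shown for Col1a2 as the collagen chain whose promoter was read. The letters CCAAT were found 109 bases before the RefSeq start (GRCm38.p6, plus strand), within the 5′ UTR of the GENCODE transcript Col1a2-201, which starts further upstream. CCAAT, on either strand, was present in 33.8% of all promoters of the table. Of the 6 genes read, Col1a2 and Rgs5 each held 1 such match, that of Rgs5 on the opposite strand, 67 bases before its start.
Col1a2 chr6:4505499-4505523: aagaatggaaCCAATttaagaagcc

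The ratio of Col1a2 to Col1a1 was 2.40, 2.67 and 2.60 in PND and 2.00, 2.11 and 2.24 in CON, all 3 PND samples being above all 3 CON samples. The mean ratio was 2.56 ± 0.140 against 2.12 ± 0.121 (exact permutation test, two-sided, p = 0.10, the smallest that 3 against 3 can give). It was 1 of 7 ratios between member genes that were computed, and the p adjusted over these 7 was 0.525. The other 6 ratios overlapped between the groups.

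Dcn (ENSMUSG00000019929, chromosome 10, 97479609 to 97518143) encodes decorin and Lum (ENSMUSG00000036446, chromosome 10, 97565128 to 97572703) encodes lumican, which lies next to it. Dcn measured 5.80, 3.46 and 2.86 FPKM in PND and 3.33, 3.89 and 4.80 FPKM in CON. PND held both the highest and the lowest sample, and the log2 fold change was -0.04 (SE 0.28, unadjusted p = 0.903) as deposited and 0.033 after GC correction. Lum measured 0.436, 0.488 and 0.513 FPKM in PND and 0.514, 0.651 and 0.938 FPKM in CON. It was the 1 gene of 10 whose groups did not overlap, against 7.66% of all genes tested, and PND replicate 3 and CON replicate 1 were nearly equal. The log2 fold change of Lum was -0.44 (SE 0.30, 95% interval -1.15 to 0.28, unadjusted p = 0.193), from 9.44 to 16.5 estimated fragments per sample, and it was -0.23 without CON replicate 3. Although the genes are neighbours, PND replicate 1 was the highest sample for Dcn and the lowest for Lum, with a ratio of 13.3 there and of 5.12 to 7.09 in the other samples.

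**Figure D3:**
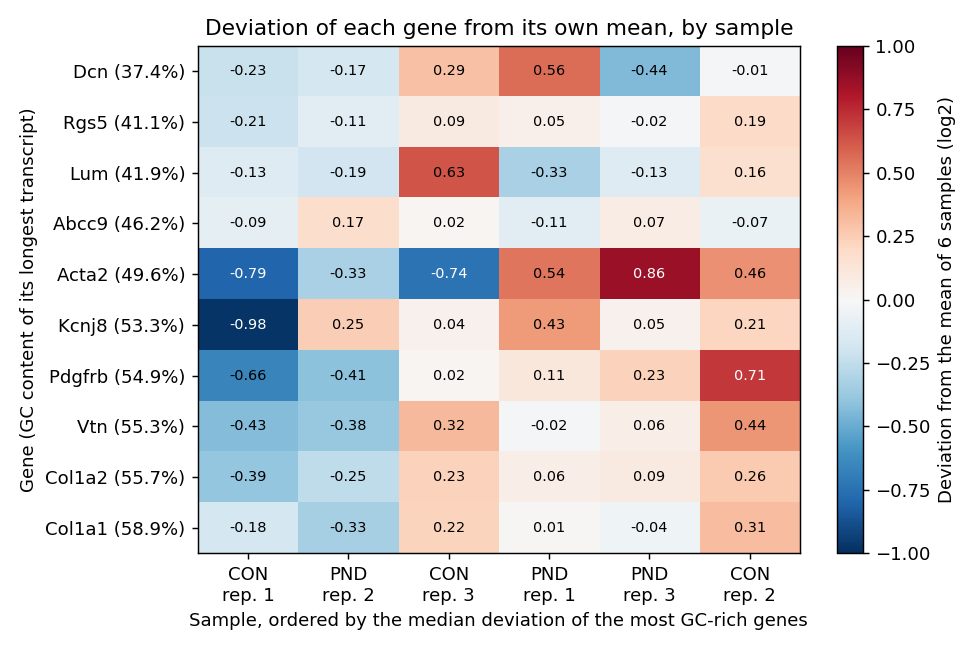
Deviation of each gene (rows, ordered by the GC content of its longest transcript, given in parentheses) from its own mean over the 6 samples on the log2 scale, with samples ordered from the lowest to the highest median deviation of the GC-rich genes. The 4 most GC-rich members (Pdgfrb, Vtn, Col1a2 and Col1a1) are below their means in CON replicate 1 and PND replicate 2 and above them in CON replicate 2, whereas Abcc9 stays between -0.11 and 0.17.

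Some members followed this order of the samples and others did not. Dcn was lowest in PND replicate 3 and highest in PND replicate 1, and Lum was lowest in PND replicate 1 and highest in CON replicate 3. CON replicate 1 was the lowest sample for 6 of the 10 genes, and 25.6% of all genes tested were lowest there. CON replicate 2 was the highest for 5 of the 10, and 25.4% of all genes were highest there. The median deviation over the 10 genes was -0.31 in CON replicate 1, -0.22 in PND replicate 2 and 0.24 in CON replicate 2, and it was higher in CON replicate 3 (0.16) than in PND replicate 3 (0.055). Pdgfrb, at 54.9% GC, deviated by -0.66 in CON replicate 1 and by 0.71 in CON replicate 2, whereas Abcc9, at 46.2% GC, stayed between -0.11 and 0.17. After GC correction the standard error was smaller for 8 of the 10 genes, and still 0 of 10 had a p below 0.05. The median log2 fold change of the 10 was then -0.05.

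**Figure D4:**
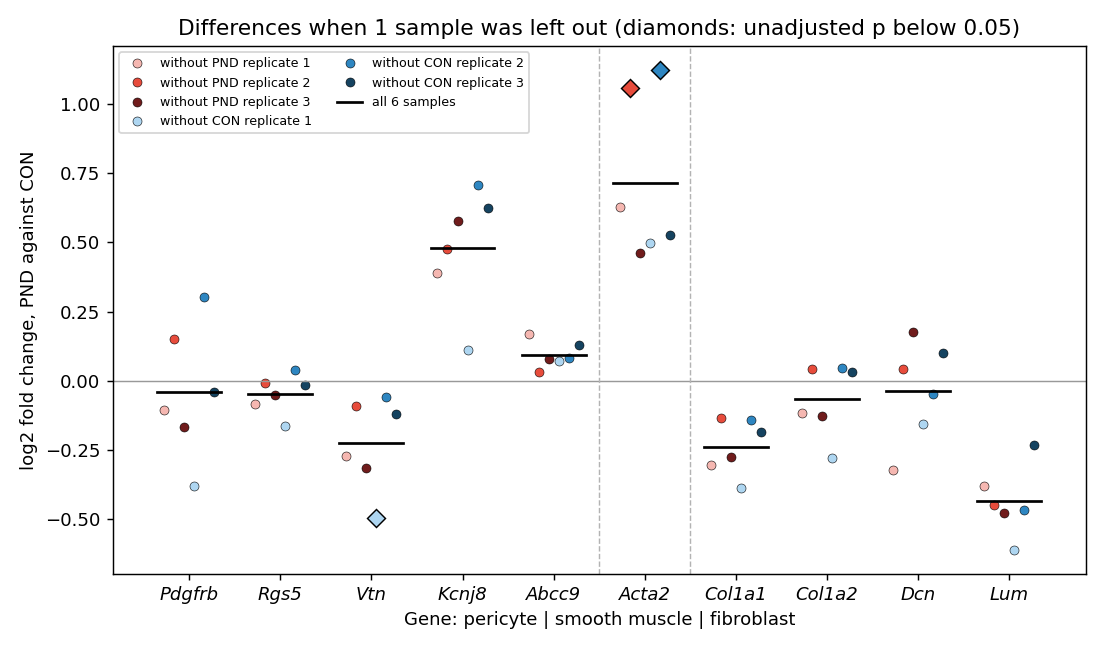
log2 fold change of PND against CON for each of the 10 genes with all 6 samples (black bars) and with each sample left out in turn (points), with diamonds where the unadjusted p was below 0.05. Acta2 without PND replicate 2 or CON replicate 2 and Vtn without CON replicate 1 are the 3 diamonds, and Pdgfrb, Rgs5, Col1a2 and Dcn have points on both sides of 0.

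The genes whose pattern over the 6 samples was most like that of the pericyte genes were sought among 12381 other genes averaging 1 FPKM or more. The mean log2 level of Pdgfrb, Rgs5, Vtn and Abcc9 was followed most closely by Kmt2d (Pearson r = 0.998), a histone methyltransferase, Sipa1l2 (r = 0.998) and Josd1 (r = 0.997). A total of 990 genes (7.996%) had r above 0.9 with this profile. The 6 points are the same libraries for every gene, with their differences in GC-rich genes, whose part in the likeness was not tested. For Dcn, the 1 fibroblast gene at this level, the closest included Kcnk10 (r = 0.972), a potassium channel, and Cdh18 (r = 0.963), a cadherin, and 29 genes (0.234%) had r above 0.9.

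Other genes of the same cell types were then read from the same fit. Of 15 further pericyte genes, 10 were higher and 5 lower in PND, with a median log2 fold change of 0.18, and 2 had an unadjusted p below 0.05, both higher (1.73% of all genes were higher with such a p). Foxf2, a transcription factor of brain pericytes, measured 0.813, 0.642 and 0.721 FPKM in PND and 0.395, 0.364 and 0.118 FPKM in CON. All PND samples were above all CON samples, and the log2 fold change was 1.16 (SE 0.40, unadjusted p = 0.0209, adjusted p = 0.9999). Foxf2 rested on an estimated 45.0 fragments over the PND samples against 16.0 over the CON samples. CON replicate 3 held 2 of these, under the floor of 3 fragments. The p of Foxf2 was 0.0579 after GC correction, 0.0675 without PND replicate 1 and 0.0540 without PND replicate 3. Its log2 fold change was 0.78 without CON replicate 3, 0.42 with a pseudocount of 1 and 1.45 with a pseudocount of 0.01. Higd1b, a mitochondrial protein used as a pericyte marker, measured 0.735, 1.06 and 0.594 FPKM in PND and 0.248, 0.456 and 0 FPKM in CON, so that the log2 fold change was 1.71 (SE 0.63, unadjusted p = 0.0298, adjusted p = 0.9999). It rested on an estimated 17.3 fragments over the PND samples against 4.72 over the CON samples, and its p was 0.0647 without PND replicate 1 and 0.0908 without PND replicate 2. Its log2 fold change was 0.99 without CON replicate 3, the sample at 0, and it was 0.55 with a pseudocount of 1 and 2.88 with a pseudocount of 0.01 (unadjusted p = 0.0710). Both passed the study's cut-off with the pseudocount of 0.1, as did 0.841% of all genes in this direction, and neither reached a 2-fold change with a pseudocount of 1. No p below 0.05 was found for the most abundant genes of the list, of which the amino acid transporter Slc6a20a had means of 4.94 and 4.28 FPKM and the transcription factor Zic1 of 4.29 and 4.10 FPKM. The summed level of the list was 20.8 to 25.6 FPKM in PND and 19.4 to 22.5 FPKM in CON.

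Of 14 further smooth muscle genes present, 12 were tested and 0 had a p below 0.05, against 3.13% of all genes tested. Of the 12, 8 were higher and 4 lower in PND, with a median of 0.21, and voom also gave 0. The myosin light chain kinase Mylk had means of 2.14 and 1.87 FPKM, and the smooth muscle myosin heavy chain Myh11 had 1.85 and 1.43 FPKM (log2 fold change 0.36, SE 0.23, unadjusted p = 0.159). The groups did not overlap for 5 of the 12 (7.66% of all genes tested). Lmod1, Smtn and Mustn1 were higher in PND, and Cald1 and Pln were lower, these 5 being named after their values were seen. The summed level was 10.98 to 11.3 FPKM in PND and 8.76 to 10.9 FPKM in CON. Cnn1 and Myocd, which define contractile smooth muscle, had means over the 6 samples under 0.1 FPKM and were not tested.

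Of 21 further fibroblast genes, 9 were higher and 12 lower, with a median of -0.02, and 2 had a p below 0.05, both higher (1.73% of all genes). Mgp, a matrix protein that inhibits calcification, measured 1.10, 1.23 and 1.20 FPKM in PND and 0.401, 0.369 and 0.939 FPKM in CON. The log2 fold change was 1.03 (SE 0.36, unadjusted p = 0.0221, adjusted p = 0.9999), past the study's cut-off. Mgp rested on an estimated 36.5 fragments over the PND samples against 15.1 over the CON samples, with 3.56 in each of CON replicates 1 and 2. The p of Mgp was between 0.0577 and 0.0624 without PND replicate 2, PND replicate 3, CON replicate 1 or CON replicate 2. Its log2 fold change fell short of the cut-off without CON replicate 1 (0.87), without CON replicate 2 (0.82) and with a pseudocount of 1 (0.49). It was 1.40 without CON replicate 3 and 1.17 with a pseudocount of 0.01. Fbln1, the matrix glycoprotein fibulin-1, measured 0.960, 0.698 and 0.701 FPKM in PND and 0.255, 0.626 and 0.354 FPKM in CON (log2 fold change 0.85, SE 0.35, unadjusted p = 0.0467, adjusted p = 0.9999). Its p stayed below 0.05 when CON replicate 2 was left out and was above it when any other sample was, up to 0.146. The most abundant genes were Col6a1, a chain of type VI collagen, with means of 16.1 and 13.3 FPKM, and Pdgfra, the alpha receptor that also marks oligodendrocyte precursors, with 4.68 and 4.61 FPKM.

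**Figure D5:**
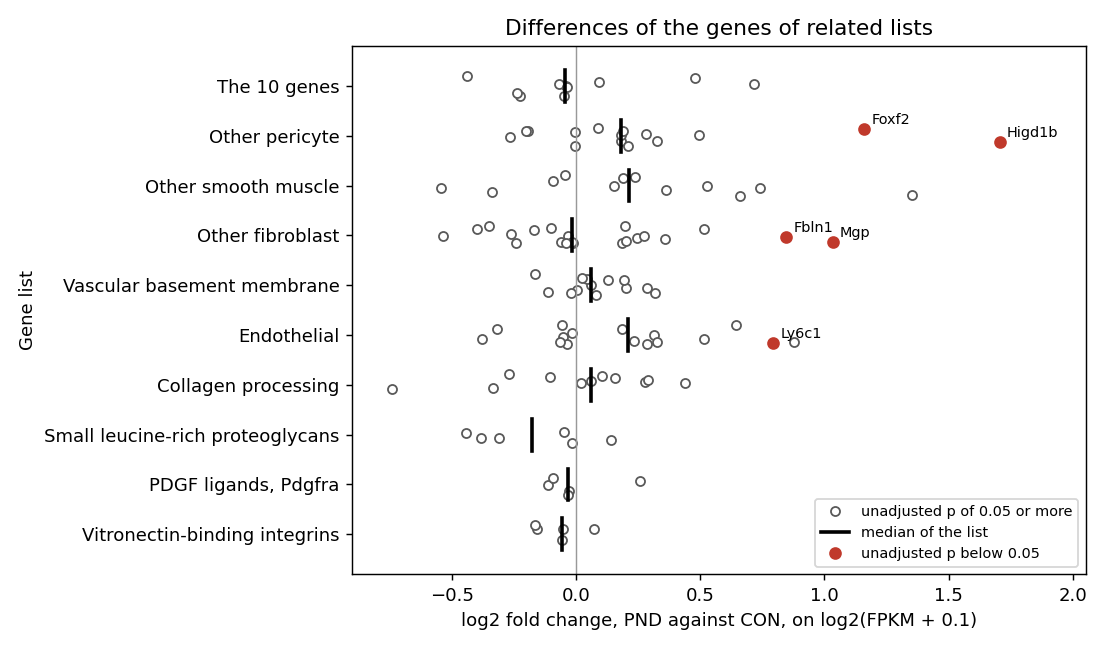
log2 fold change of PND against CON for each tested gene of the 10 examined genes and of 9 related lists, on the log2(FPKM + 0.1) scale, with list medians as bars and genes with an unadjusted p below 0.05 in red. Foxf2, Higd1b, Fbln1, Mgp and Ly6c1 are red, all to the right of 0, and list medians lie between -0.18 and 0.21.

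The partners of the 10 genes showed 0 genes with a p below 0.05 in any of the following groups, with limma or with voom. Over all genes, 3.13% had such a p in limma and 522 of 18068 in voom, so 0 in groups this small is near that share. Among the platelet-derived growth factors and Pdgfra (5 tested, median -0.03), Pdgfc had means of 1.55 and 1.68 FPKM. Both subunits of the related potassium channel of neurons and endocrine cells were higher in PND without passing the test, Kcnj11 with 2.52 and 2.28 FPKM and Abcc8 with 1.18 and 1.10 FPKM. Among genes that modify, fold and cross-link collagen (11 tested, 7 higher, median 0.06), the prolyl hydroxylase subunits P4hb and P4ha1 had 13.8 and 9.68 FPKM in PND against 13.2 and 10.4 FPKM in CON. The lysyl hydroxylase Plod1, named after its values were seen, had a log2 fold change of -0.74 (unadjusted p = 0.0855), with an unadjusted p of 0.0370 after GC correction. Among the other small leucine-rich proteoglycans, the family of Dcn and Lum (6 tested, 5 lower, median -0.18), Ogn had 2.86 and 3.41 FPKM and Fmod had 1.85 and 1.67 FPKM. Integrins that bind vitronectin (5 tested, 4 lower, median -0.05) included Itgav, with 22.9 and 25.5 FPKM, and Itgb1, with 18.8 and 19.6 FPKM. Close relatives of Rgs5 (6 tested, 3 higher, median 0.02) included Rgs4, with 61.2 and 64.7 FPKM, and Rgs2, with 13.5 and 14.2 FPKM. Serum response factor, its cofactors and other actins (6 tested, 5 higher, median 0.10) included Actb, with 96.3 and 89.4 FPKM, and Mrtfb, with 37.5 and 38.4 FPKM. Vascular basement membrane genes (13 tested, 10 higher) had a median of 0.06, which was -0.04 after GC correction, and included Lamc1, with 5.19 and 4.53 FPKM, and Col4a2, with 4.55 and 4.95 FPKM.

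Markers of neighbouring cell types were measured in the same samples. Of 16 endothelial genes, 9 were higher and 7 lower, with a median of 0.21, and their summed level was 62.0 to 72.3 FPKM in PND and 53.7 to 70.2 FPKM in CON. Ly6c1, a surface protein of brain endothelium, had 7.11, 5.99 and 4.27 FPKM in PND and 3.20, 3.35 and 3.12 FPKM in CON (log2 fold change 0.79, SE 0.21, unadjusted p = 0.00568, adjusted p = 0.9999). It was the 1 gene of the 16 with an unadjusted p below 0.05 in limma (1.73% of all genes were higher with such a p). In voom 2 of the 16 had such a p, Ly6c1 and Vwf, against 522 of 18068 genes. Slco1a4 and Itm2a, the most abundant of this list, had means of 13.5 and 11.3 FPKM in PND and of 10.7 and 14.4 FPKM in CON. Choroid plexus genes summed to 3.10 to 3.84 FPKM in PND and 1.62 to 3.17 FPKM in CON. Of the 5 tested, 2 were higher with a p below 0.05, against 1.73% of all genes (Sostdc1, unadjusted p = 0.0119, and Clic6, unadjusted p = 0.0319). The log2 fold change of Sostdc1 was 1.38, but 0.29 with a pseudocount of 1 and 2.78 with a pseudocount of 0.01. Without PND replicate 1, PND replicate 3, CON replicate 1 or CON replicate 2 the unadjusted p of Clic6 was 0.0815, 0.102, 0.0653 or 0.0863. The defining choroid plexus gene Ttr, together with Folr1, Aqp1 and Otx2, had a mean under 0.1 FPKM, and Kl was the next most abundant of the list after Clic6. Haemoglobin genes summed to 0 to 2.76 FPKM in PND and 0 to 0.0769 FPKM in CON, with Hbb-bs at 1.30 FPKM in PND replicate 1 and Hba-a1 at 0.758 FPKM there. The part of these cells in the values of Foxf2, Higd1b, Mgp and Fbln1 was not tested.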

How the data were processed

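The authors removed ribosomal RNA, sequenced on an Illumina HiSeq, filtered reads with Seqtk, aligned them with HISAT2 and counted fragments per gene with StringTie. The deposited values were FPKM after scaling by TMM (trimmed mean of M values), in 1 column per mouse. Genome build, annotation and use of strand for these libraries are not given in the sources used here. The submitters' processing notes name Bowtie 0.12.2, mm8 and mm9 without a role. Gene positions, GC content and lengths of exons were taken from GENCODE M21 on GRCm38 by identifier (20866 of 21006 genes), and promoters from RefSeq.

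Differences between the groups were fitted by limma 3.58.1 (R 4.3.3; lmFit, then eBayes with its trend option) to log2(FPKM + 0.1) of the 18185 genes averaging 0.1 FPKM or more, with no covariate and with Benjamini-Hochberg adjustment over all of them. Fold changes are on that scale, which understates changes of low genes. The fit was tested on simulated data. Depth was estimated from steps in low values: 41.1% to 44.7% lay within 0.05 of a whole fragment, against 10% without steps, so fragment numbers are estimates, and intervals or floors (3 fragments) from them cover counting error only. No pair of samples (0 of 15) held identical values. Samples of 1 group were separate mice.

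The 10 genes and all lists were chosen with earlier results of these data known. Named from each list were the 2 genes with the highest mean and up to 3 with the smallest p below 0.05; some of these are not reported here. Alternatives were other pseudocounts, filters, scalings, a GC correction, a replicate block, a stricter p, leaving out each sample, and voom on estimated fragments, which was added after seeing the data.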

Additional observations from a re-analysis of the deposited data

How the results depend on the processing

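The count of the 10 genes with a p below 0.05 was 0 with all 6 samples under every alternative run. It ranged from 0 to 1 when 1 sample was left out. Over all genes, 241 passed the cut-off of a more than 2-fold change with p below 0.05, 25 passed with a pseudocount of 1, 59 when a mean of at least 1 FPKM was required, 88 at a p threshold of 0.01, and 235 to 388 when 1 sample was left out (388 without CON replicate 2). The related lists held 11 genes with a p below 0.05, 6 with a mean of at least 1 FPKM, 4 at a p threshold of 0.01, and 8 to 15 when 1 sample was left out. Over all 18185 genes, 569 (3.13%) had a p below 0.05. With a mean of at least 1 FPKM it was 331 of 12387, and it was 406 to 960 genes when 1 sample was left out. The direction of Dcn turned to 0.033 with GC correction, with or without the replicate block. When 1 sample was left out, the log2 fold change ranged from -0.38 to 0.30 for Pdgfrb, from -0.17 to 0.038 for Rgs5, from -0.28 to 0.046 for Col1a2 and from -0.32 to 0.17 for Dcn. The cause of these changes was not tested. Of the 126 values of the 10 genes under alternatives with all samples, 124 kept their direction and their side of the threshold. Part of this was fixed in advance. The stricter p threshold used the values of the main fit, where none of the 10 could cross it. The filters, the fit without the trend option and the replicate block left the fold change as it was, so its direction could not turn there.

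The samples share replicate numbers, but the deviations of same-numbered samples from their group means correlated by -0.05, -0.45 and 0.03 across genes. No pairing by number was thus visible. Samples with different numbers correlated by -0.42 to 0.43, and beside such values a weaker pairing could have been missed. With the number as a replicate block, 226 genes passed the cut-off. A p below 0.05 was then found for 0 of the 10 genes, 10 genes of the related lists and 361 of all 18185 genes. The p of Fbln1 in that fit was 0.0927.

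Depth limits Lum, Col1a1 and Kcnj8 most, since the samples held at most 16.5 fragments of Lum, 15.1 of Col1a1 and 12.8 of Kcnj8. With a mean of at least 1 FPKM required, Kcnj8, Col1a1, Col1a2 and Lum were not tested.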

Other observations

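Markers of the main cell types of the cortex were read from the same fit, without a test of their bearing on the vascular genes. In that fit 1.73% of all genes were higher and 1.40% lower with an unadjusted p below 0.05. Among the neuronal genes, Snap25 had means of 482 FPKM in PND and 499 FPKM in CON, and Syt1 of 114 and 120 FPKM. Of 6 astrocyte genes, the intermediate filament gene Gfap was higher in PND (22.9, 17.7 and 24.7 against 13.0, 14.9 and 13.0 FPKM, log2 fold change 0.66, unadjusted p = 0.00294), and Aqp4, the water channel of astrocyte endfeet on vessels, was lower (25.6, 21.5 and 24.8 against 34.5, 26.8 and 31.3 FPKM, log2 fold change -0.36, unadjusted p = 0.0275). The glutamate transporters Slc1a2 and Slc1a3 had means of 181 and 62.9 FPKM in PND and of 229 and 61.1 FPKM in CON. Of the 6 astrocyte genes, 3 were higher and 3 lower, with a median log2 fold change of 0.001. Of 6 microglial genes, 3 were higher and 3 lower in PND, with a median log2 fold change of 0.07. The 1 with an unadjusted p below 0.05 (1.40% of all genes were lower with such a p) was P2ry12, a purine receptor. It was lower in PND (4.61, 7.06 and 4.79 against 10.7, 9.47 and 7.68 FPKM, log2 fold change -0.76, unadjusted p = 0.00767). Of 6 oligodendrocyte genes, 0 had an unadjusted p below 0.05 in limma or voom, with means of 125 and 119 FPKM for Mobp. Over all genes, 3.13% had such a p in limma. Adjusted p-values were 0.9999 for Gfap, Aqp4 and P2ry12. Aqp4 had a p above 0.05 when any of 3 samples was left out, and Gfap and P2ry12 kept a p below 0.05 in all 6 such fits.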
